A study of Equus caballus with 10 samples.

Results

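The 10 genes of fat cell formation and lipid storage followed in equine tenocytes, the resident cells of tendon, were taken by name: PPARG, CEBPA, CEBPB, CEBPD, FABP4, LPL, PLIN2, G0S2, PNPLA2 and ADIPOQ. Of these 10 genes, 9 were among the 29196 genes analysed, and FABP4 was not analysed here. The cells were primary tenocytes from the superficial digital flexor tendon of 5 Thoroughbred or Thoroughbred-type horses, called donors 1 to 5, and the age of each donor was not given in the sources used here. Every donor gave 1 RNA sequencing library to each of 2 groups after 14 days in 3D gels of bovine collagen with serum. Both groups received PF-06650833 (PF), an inhibitor of the kinase IRAK-4, daily at 100 nM, and one group also received IL-1β at 17 ng/ml with each medium change. The comparison therefore asks what IL-1β changed while its signalling kinase was inhibited, and no library without the inhibitor was used here. G0S2 is among the genes that the study picked from its own comparisons, which included the libraries of IL-1β plus PF, so its direction is not independent evidence.

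In the formation of fat cells, C/EBPβ and C/EBPδ (encoded by CEBPB and CEBPD) act early and lead to expression of PPARγ and C/EBPα (PPARG and CEBPA), which then maintain the genes of the mature adipocyte, such as ADIPOQ, FABP4 and LPL. C/EBPβ is also a transcription factor of the inflammatory response. Stored triglyceride is kept in droplets coated by perilipins, of which PLIN2 is the form found in most cells, and is released by the lipase ATGL, the product of PNPLA2, which the G0S2 protein inhibits. Fat deposits and adipocytes are known from degenerated tendon.

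Expression is given as variance-stabilised log2 values, in which the absence of any read is written as 3.43, and as reads per library estimated from the spacing of the lowest values. The estimated depth was 26429492 to 35869278 reads for PF alone and 26839858 to 33508557 for IL-1β plus PF. All 9 genes had reads in at least 5 of the 10 libraries and were tested with limma among 17992 genes. By thresholds taken from the original methods, a gene was called differentially expressed when its adjusted p was below 0.05 and its log2 fold change was 1 or more in either direction. By this rule 6.68% of all tested genes were differentially expressed: 3.11% were higher in the group with IL-1β and 3.57% were lower. With the donor as a block the shares were 8.26% in all and 4.01% higher. Differences between low values are compressed on this scale, so a gene with few reads has a log2 fold change that is too small.

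CEBPB and ADIPOQ were the 2 differentially expressed genes among the 9, both higher with IL-1β plus PF, where 6.68% of all tested genes were called and 3.11% were called higher. LPL joined them when the donor was a block, making 3 of 9 against 8.26%. PNPLA2 passed the adjusted p threshold with a log2 fold change just under 1. PLIN2 and G0S2 lay higher on average without passing the test, and no difference was detected for PPARG, CEBPA or CEBPD. The median log2 fold change was 0.67 over these 9 genes and -0.01 over all tested genes. The groups did not overlap for CEBPB, PNPLA2 and ADIPOQ, against 12.7% of all tested genes. In 5 of the 9 genes, which also included LPL and G0S2, expression was higher with IL-1β plus PF in all 5 donors, against 16.0% of all tested genes.

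**Figure D1:**
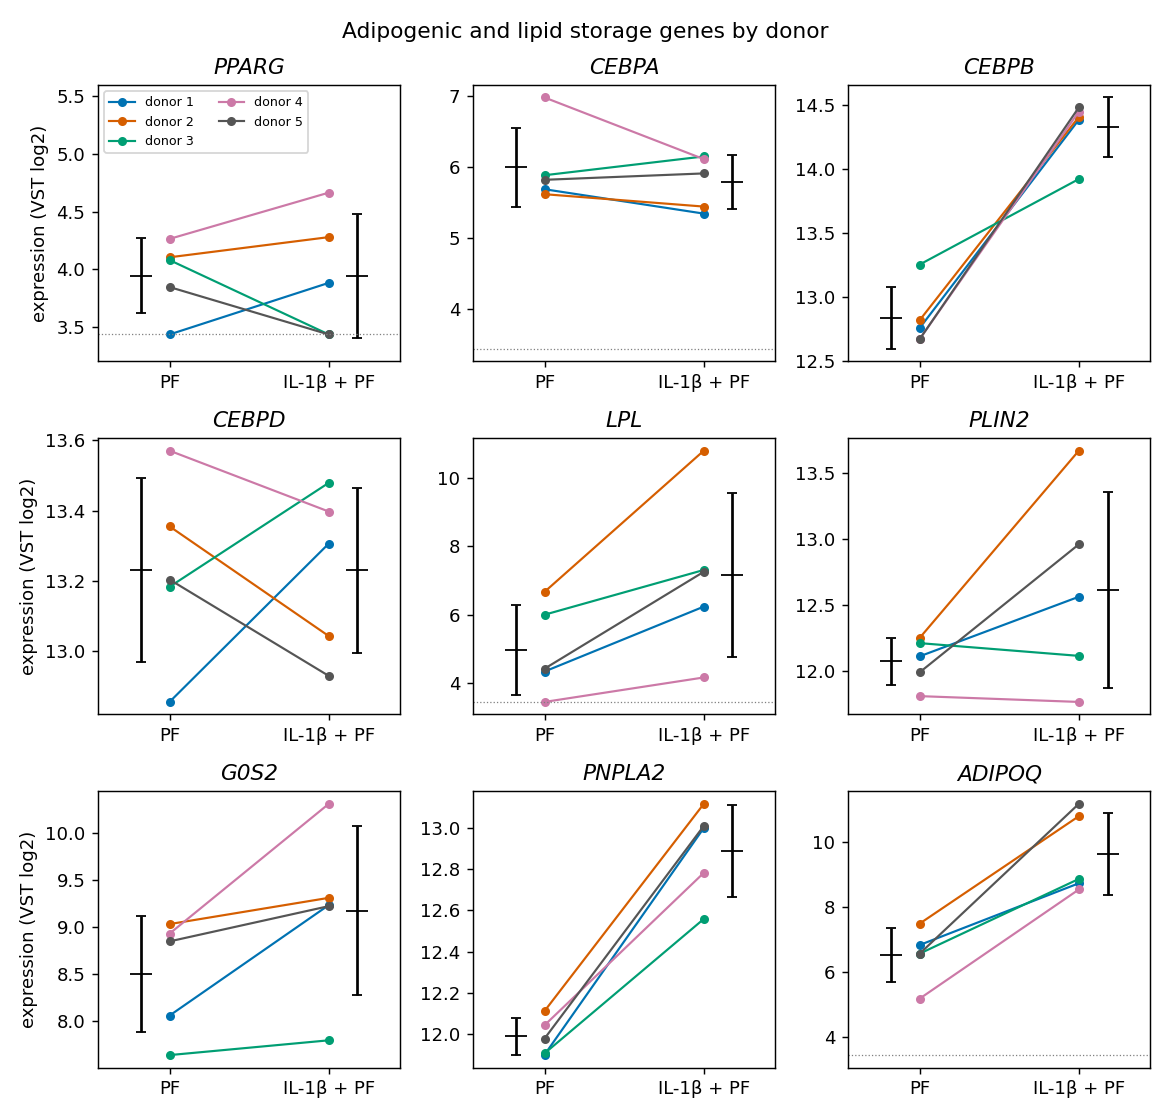
Variance-stabilised log2 expression (y axis, a separate range for each gene) of the 9 genes with PF alone and with IL-1β plus PF, with a line for each donor, the mean and SD of 5 libraries in black beside the points, and a dotted line at the value of 0 reads. All 5 lines rise for CEBPB, LPL, G0S2, PNPLA2 and ADIPOQ, while those of PPARG, CEBPA, CEBPD and PLIN2 run in both directions.

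CEBPB was at 12.76, 12.82, 13.25, 12.67 and 12.67 in donors 1 to 5 with PF alone. It was at 14.39, 14.41, 13.92, 14.45 and 14.48 with IL-1β plus PF, so that every library with IL-1β lay above every library without it. Donor 3 had the highest CEBPB of the 5 with PF alone and the lowest with IL-1β plus PF, and its increase of 0.67 compared with 1.59 to 1.81 in the other 4 donors. CEBPB rose from 12.84 ± 0.24 (SD, n = 5) to 14.33 ± 0.23 (SD, n = 5), with a log2 fold change of 1.50 (standard error, SE, 0.15, limma, adjusted p = 1.86e-04), or 2.82-fold. These values rest on an estimated 5425 to 7401 reads per library for PF alone and 13496 to 19653 where IL-1β was added.

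CEBPD, its early partner, was well covered as well, with 6507 to 11190 reads per library. Its values were 12.86, 13.36, 13.18, 13.57 and 13.20 with PF alone and 13.31, 13.04, 13.48, 13.40 and 12.93 with IL-1β plus PF. The groups overlapped over nearly their whole range, and CEBPD was higher with IL-1β in donors 1 and 3 and lower in donors 2, 4 and 5. The log2 fold change was -0.0026 (95% confidence interval -0.33 to 0.33, limma, adjusted p = 0.994). An increase of the size seen for CEBPB lies outside this interval.

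The transcription factors that follow them in adipogenesis were at low levels. PPARG had between 0 and 3 estimated reads per library with PF alone and between 0 and 6 in the group with IL-1β, and 3 of the 10 libraries had 0 reads. At this depth no difference was detectable (log2 fold change -0.01, 95% confidence interval -0.59 to 0.57, limma, adjusted p = 0.991). CEBPA had 23 to 98 reads with PF alone and 18 to 45 in the group with IL-1β. Its values were 5.69, 5.62, 5.89, 6.99 and 5.82 with PF alone, where donor 4 stood apart, and 5.34, 5.44, 6.15, 6.11 and 5.91 with IL-1β plus PF. The groups overlapped, with a log2 fold change of -0.21 (95% confidence interval -0.86 to 0.44, limma, adjusted p = 0.699). Without the donor 4 library of PF alone it was 0.039.

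ADIPOQ, which encodes the adipocyte hormone adiponectin, had the largest log2 fold change of the 9 genes. It was at 6.83, 7.49, 6.57, 5.18 and 6.56 in donors 1 to 5 with PF alone and at 8.74, 10.81, 8.87, 8.55 and 11.19 with IL-1β plus PF. The lowest library with IL-1β lay 1.06 above the highest without it, and the increase within a donor ranged from 1.91 in donor 1 to 4.63 in donor 5. In reads, this was 16 to 120 per library against 250 to 1993. ADIPOQ rose from 6.53 ± 0.84 (SD, n = 5) to 9.63 ± 1.26 (SD, n = 5), with a log2 fold change of 3.11 (SE 0.59, limma, adjusted p = 0.00543). On this scale this was 8.62-fold (95% confidence interval 3.53 to 21.0), and ADIPOQ ranked 84th from the top by log2 fold change among the 17992 tested genes.

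LPL encodes lipoprotein lipase, which frees fatty acids from circulating triglyceride for uptake. Its values were 4.33, 6.67, 5.99, 3.43 and 4.41 with PF alone, and 6.23, 10.81, 7.31, 4.15 and 7.26 with IL-1β plus PF. The donors were far apart. Donor 2 was the highest and donor 4 the lowest in both groups, from 0 reads in donor 4 to 61 in donor 2 with PF alone and from 2 to 1572 with IL-1β plus PF. The groups overlapped, and without a donor term LPL was not differentially expressed (log2 fold change 2.19, SE 1.05, limma, adjusted p = 0.192). Within each donor, however, LPL was higher with IL-1β, by 1.91, 4.15, 1.31, 0.72 and 2.85 in donors 1 to 5. With the donor as a block LPL was differentially expressed (SE 0.46, limma, adjusted p = 0.0137), and it remained so when any 1 donor was left out of the blocked fit, at an adjusted p between 0.00906 and 0.0488. Without the donor 2 library of IL-1β plus PF the log2 fold change was 1.27 in the fit with no donor term.

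**Figure D2:**
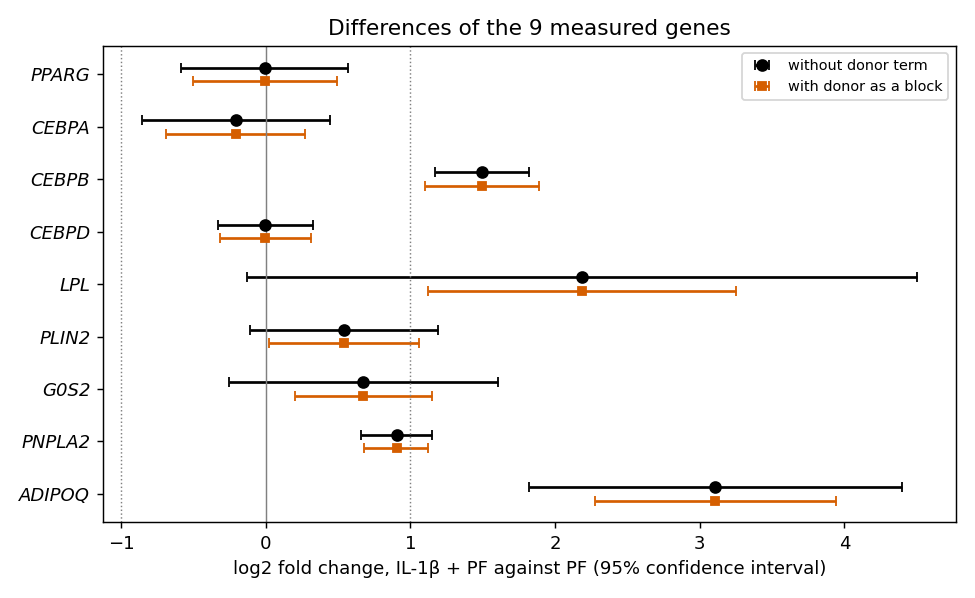
Log2 fold change of IL-1β plus PF against PF alone (x axis) with its 95% confidence interval from limma for the 9 genes, without a donor term (black) and with the donor as a block (orange), with dotted lines at the minimum change of 1 in either direction. The interval of LPL runs from -0.13 to 4.50 without the donor term and from 1.12 to 3.25 with it, while the intervals of CEBPB and ADIPOQ lie above 1 in both fits.

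PNPLA2, of the lipase that opens triglyceride breakdown, was between 11.90 and 12.11 in the 5 libraries with PF alone and at 13.00, 13.12, 12.56, 12.78 and 13.01 in donors 1 to 5 with IL-1β plus PF. It had the smallest spread of the 9 genes with PF alone, with an SD of 0.09, and the groups were 0.45 apart at their nearest. The log2 fold change was 0.90 (SE 0.11, 95% confidence interval 0.66 to 1.15, limma, adjusted p = 6.01e-04), or 1.87-fold, and was higher in 5 of 5 donors. PNPLA2 thus passed the test without the minimum fold change, as 15.5% of all tested genes did (22.2% with the donor as a block), and was not counted as differentially expressed.

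G0S2, the inhibitor of the lipase made from PNPLA2, was at 8.06, 9.03, 7.64, 8.93 and 8.85 with PF alone and at 9.23, 9.31, 7.79, 10.31 and 9.22 with IL-1β plus PF. The groups overlapped through donor 3, which was the lowest in both. Within donors the increase was 1.18 in donor 1 and 1.38 in donor 4, and 0.16 to 0.38 in the other 3. G0S2 was not differentially expressed (log2 fold change 0.67, 95% confidence interval -0.26 to 1.60, limma, adjusted p = 0.321), nor with the donor as a block (limma, adjusted p = 0.0513).

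PLIN2, the droplet coat protein, was between 11.81 and 12.25 with PF alone, a narrow range carried by 3280 to 3867 reads per library. With IL-1β plus PF it spread to 12.56, 13.67, 12.11, 11.76 and 12.96 in donors 1 to 5. It lay higher by 0.45, 1.42 and 0.97 in donors 1, 2 and 5 and lower by 0.10 and 0.04 in donors 3 and 4. PLIN2 did not pass the test (log2 fold change 0.54, 95% confidence interval -0.11 to 1.19, limma, adjusted p = 0.252). It did not pass with the donor as a block either (95% confidence interval 0.025 to 1.06, limma, adjusted p = 0.122). Without the donor 2 library of IL-1β plus PF the log2 fold change was 0.28 in the fit with no donor term.

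The donors differed in which of these genes were high. Donor 2 had the highest LPL, PLIN2, G0S2, PNPLA2 and ADIPOQ of the 5 donors with PF alone, and the highest LPL, PLIN2 and PNPLA2 with IL-1β plus PF. Donor 4 had the lowest LPL, PLIN2 and ADIPOQ in both groups, and the highest G0S2 with IL-1β plus PF. The pooled SD within groups was 1.95 for LPL, 1.07 for ADIPOQ and 0.77 for G0S2, against a median of 0.31 over all tested genes, and 0.17 for PNPLA2 and 0.24 for CEBPB.

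The other genes of fat cell formation and fatty acid handling were described with 6 lists chosen by known role, which together held 173 tested genes. The lists were chosen with earlier results of these data known, so their shares are descriptive and not independent evidence. Of the 173 genes, 19 were differentially expressed (13 higher, 6 lower with IL-1β), which is 11.0% against 6.68% of all tested genes. With the donor as a block 20 of the 173 were, 14 higher and 6 lower, where 8.26% of all tested genes were. The median log2 fold change of the 173 genes was 0.14. By list the share was 11.1% for regulators, 7.41% for droplet and lipolysis genes and 14.7% for uptake and triglyceride synthesis. It was 16.7% for synthesis and desaturation, 3.33% for oxidation and 12.5% for adipokines and adipocyte markers.

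Of 45 tested regulators of adipogenesis, 5 were differentially expressed, 2 higher and 3 lower, with a median log2 fold change of -0.07. GATA2, a transcription factor known to hold back the formation of fat cells, rose from 10.72 ± 0.29 (SD, n = 5) to 12.63 ± 0.59 (SD, n = 5), with a log2 fold change of 1.91 (limma, adjusted p = 9.72e-04). KLF15, which is known to act with the C/EBP factors late in adipogenesis, rose from 5 to 30 reads per library to 53 to 163 (log2 fold change 1.69, limma, adjusted p = 0.00523). The genes that fell were TRIB3, an inhibitor of AKT signalling (log2 fold change -1.61), KLF4, which is known to activate CEBPB early in adipogenesis (-1.05), and PRDM16, a regulator of brown fat (-1.79), at adjusted p-values between 0.00311 and 0.0225 from limma. KLF4 was at -0.98 to -0.90 when donor 1, 3 or 4 or any of 3 of their single libraries was left out and was then no longer counted. PRDM16 was lost when donor 1, 2 or 5 was left out, at an adjusted p between 0.0704 and 0.109 from limma, and when any of 5 single libraries of donors 1, 2, 4 and 5 was. These were fits with no donor term, and with the donor as a block its adjusted p was 0.00903 from limma. Without the minimum fold change 11 of the 45 regulators passed the test, 3 higher and 8 lower, where 15.5% of all tested genes passed. The higher gene this added was PPARA, a relative of PPARG (log2 fold change 0.80, limma, adjusted p = 0.00173), and the lower genes included CEBPG, KLF6, DDIT3 and TCF7L2, with log2 fold changes from -0.87 for CEBPG (limma, adjusted p = 3.98e-04) to -0.55 for TCF7L2 (limma, adjusted p = 0.0345). PPARGC1A, which encodes a co-activator of PPARγ, had at most 1 read in any library. SREBF1, a regulator of fatty acid synthesis, had a log2 fold change of 0.34 (limma, adjusted p = 0.308), and DLK1, a marker of preadipocytes, had 0 to 5 reads.

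Of 27 tested lipid droplet and lipolysis genes, 1 was higher and 1 lower, with a median log2 fold change of 0.17. The higher gene was LIPG, the gene of endothelial lipase, a secreted lipase mainly of phospholipids in lipoproteins. LIPG was at 9.04, 8.76, 9.35, 7.59 and 6.69 in donors 1 to 5 with PF alone and at 13.92, 14.24, 12.89, 14.76 and 14.34 with IL-1β plus PF, a log2 fold change of 5.74 (SE 0.50, limma, adjusted p = 1.16e-04). The other direct partners of the PNPLA2 lipase did not pass the test: the log2 fold change was 0.06 for its co-activator ABHD5 (95% confidence interval -0.22 to 0.34) and 0.54 for its inhibitor HILPDA (95% confidence interval 0.14 to 0.93, limma, adjusted p = 0.0692). The next lipase of the pathway, hormone-sensitive lipase (LIPE), was at 7.84 ± 0.35 (SD, n = 5) and 8.49 ± 0.45 (SD, n = 5), with a log2 fold change of 0.66 (limma, adjusted p = 0.0933). HILPDA and LIPE each lay higher in 5 of 5 donors and passed with the donor as a block and no minimum fold change (adjusted p = 0.0337 and 0.0255 from limma). By that rule 7 of the 27 genes passed, 4 higher and 3 lower, against 22.2% of all tested genes. Without the block 4 passed, 1 higher and 3 lower, against 15.5%. The lower genes included CIDEA (log2 fold change -0.97, limma, adjusted p = 0.0116) and LDAH (-0.47, limma, adjusted p = 0.0113). Both were higher in 0 of 5 donors. CIDEA had 15 to 37 reads per library for PF alone against 1 to 9 where IL-1β was added.

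Of 34 tested genes of fatty acid uptake and triglyceride synthesis, 3 were higher and 2 lower, with a median log2 fold change of 0.15. GPAM, which encodes the enzyme of the first step of triglyceride synthesis in mitochondria, rose from 9.99 ± 0.18 (SD, n = 5) to 11.86 ± 0.75 (SD, n = 5), with a log2 fold change of 1.87 (limma, adjusted p = 0.00236). The glycerol kinase gene GK also rose (1.05, limma, adjusted p = 0.00923), but its call was lost without donor 1, 2 or 5, without the donor 3 library of PF alone (0.94) and without the donor 5 library of IL-1β plus PF (0.91). These were fits with no donor term, and with the donor as a block the adjusted p of GK was 0.00286 from limma. ANGPTL4, the gene of an inhibitor of LPL, rose by 1.50 (limma, adjusted p = 0.0353), from between 10.92 and 13.20 with PF alone to between 12.76 and 14.14 with IL-1β plus PF. Its groups overlapped, and its call was lost when donor 1 or 5 or any of 7 single libraries was left out, at an adjusted p between 0.0592 and 0.157 from limma, while with the donor as a block its adjusted p was 0.00223. FABP3, the fatty acid binding protein of muscle, fell by 2.07 on the log2 scale (limma, adjusted p = 6.91e-04), and VLDLR, a receptor of triglyceride-rich lipoproteins, fell by 1.21 (limma, adjusted p = 0.00671). DGAT2, of the last step of triglyceride synthesis, had 4 to 16 reads in each library (log2 fold change 0.14).

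Of 24 tested genes of fatty acid synthesis and desaturation, 4 were differentially expressed, all higher, and all 4 encode desaturases, which add double bonds to fatty acids. FADS2 rose from 12.84 ± 0.12 (SD, n = 5) to 14.54 ± 0.42 (SD, n = 5), with a log2 fold change of 1.71 (limma, adjusted p = 2.87e-04). The log2 fold changes of FADS1, SCD and SCD5 were 1.07, 1.31 and 1.03 (adjusted p between 5.02e-04 and 0.00495 from limma). FADS1 was at 0.99 without donor 2, without donor 5 or without the donor 2 library of IL-1β plus PF, and SCD5 at 0.88 to 0.99 without donor 3 or 4 or without any of 4 single libraries of donors 1, 3 and 4, so that both were then not counted. The gene of fatty acid synthase itself, FASN, had a log2 fold change of 0.43 (limma, adjusted p = 0.0756). The list's median was 0.21. Without the minimum fold change 6 of the 24 genes passed, 4 higher and 2 lower, against 15.5% of all tested genes. The 2 lower genes were ME1 (-0.87, limma, adjusted p = 0.0101) and HACD1 (-0.79, limma, adjusted p = 0.00467).

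Of 30 tested genes of fatty acid oxidation, 1 was differentially expressed. PDK4, which encodes a kinase that restrains glucose oxidation in favour of fatty acids, rose from 5.35 ± 0.68 (SD, n = 5) to 8.11 ± 1.06 (SD, n = 5), with a log2 fold change of 2.76 (limma, adjusted p = 0.00439). With the donor as a block UCP2, a mitochondrial carrier gene, was counted as well (log2 fold change 1.93, adjusted p = 0.0179 with the block and 0.0593 without it from limma). In this list 9 of the 30 genes passed without the minimum fold change, all 9 higher, against 15.5% of all tested genes, and 15 did with the donor as a block, 14 higher and 1 lower, against 22.2%. Besides PDK4 these 9 genes included CPT1A (0.48), the gate of fatty acid entry into mitochondria, ACAA2 (0.85), the last enzyme of the oxidation cycle, and ETFDH (0.80), which passes its electrons to the respiratory chain. These 3 examples were chosen after their values were seen.

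**Figure D3:**
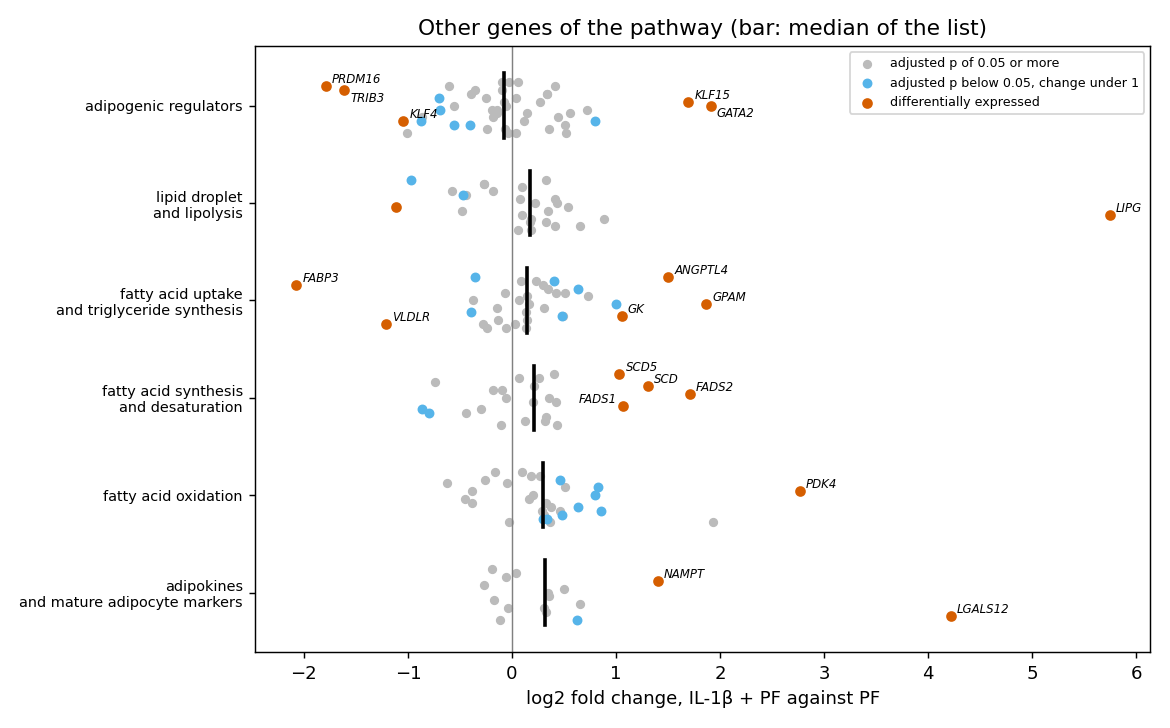
Log2 fold change of IL-1β plus PF against PF alone (x axis) for each tested gene of 6 lists of the pathway (y axis), with differentially expressed genes in orange and all but 1 of them named, genes that passed without the minimum change in blue, and a black bar at the median of the list. LIPG (5.74) and LGALS12 (4.22) lie farthest to the right, and the oxidation genes in blue all lie above 0.

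Of 16 tested adipokines and markers of mature adipocytes, 2 were differentially expressed, both higher, with a median log2 fold change of 0.32. LGALS12, the gene of a galectin found on the lipid droplets of adipocytes, had 0 reads in 4 libraries with PF alone and 1 read in the fifth. It had 354, 184, 105, 112 and 126 reads in donors 1 to 5 with IL-1β plus PF (log2 fold change 4.22, limma, adjusted p = 4.87e-05). Summed over libraries this was 1 read against 881, a ratio of 924 per sequenced read with an exact 95% interval of 165 to 36526, which covers counting error only. NAMPT, which encodes an enzyme of NAD synthesis that is also secreted by fat tissue, rose by 1.40 (limma, adjusted p = 0.0161), but its adjusted p was 0.0539 to 0.0827 without donor 1, 2 or 5. With all donors and the donor as a block it was 0.0135 from limma. The adiponectin receptor genes ADIPOR1 and ADIPOR2 had log2 fold changes of 0.62 (limma, adjusted p = 0.0123) and 0.31 (limma, adjusted p = 0.0812).

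Some genes of adipocytes were at or near 0 reads in both groups, while ADIPOQ and LIPE in both groups and LGALS12 with IL-1β were not. LEP, the leptin gene, and CD36, a fatty acid transporter gene, had 0 reads in all 10 libraries, CIDEC, of the large droplets of white adipocytes, had at most 2, and PLIN1, the perilipin of adipocytes, had at most 7 (log2 fold change 0.33, limma, adjusted p = 0.384). Of the 9 adipocyte markers other than the genes described first, 5 had at most 10 reads in every library. The summed normalised counts of all 9 ranged from 206 to 328 with PF alone and from 366 to 867 with IL-1β plus PF, and were higher in 5 of 5 donors. LGALS12 was the 1 gene of these 9 that was differentially expressed, and LGALS12 and LIPE had most of these reads. SLC2A4 and UCP1 had log2 fold changes of -0.06 and -0.04 and lay higher in 3 and 2 of 5 donors. The increases of ADIPOQ, LGALS12 and LPL were measured in libraries in which PPARG, LEP, CIDEC and PLIN1 had 0 to 7 reads each and LIPE had 113 to 358. In bulk RNA, a change in the number of cells of one kind and a change in RNA per cell cannot be told apart.

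**Figure D4:**
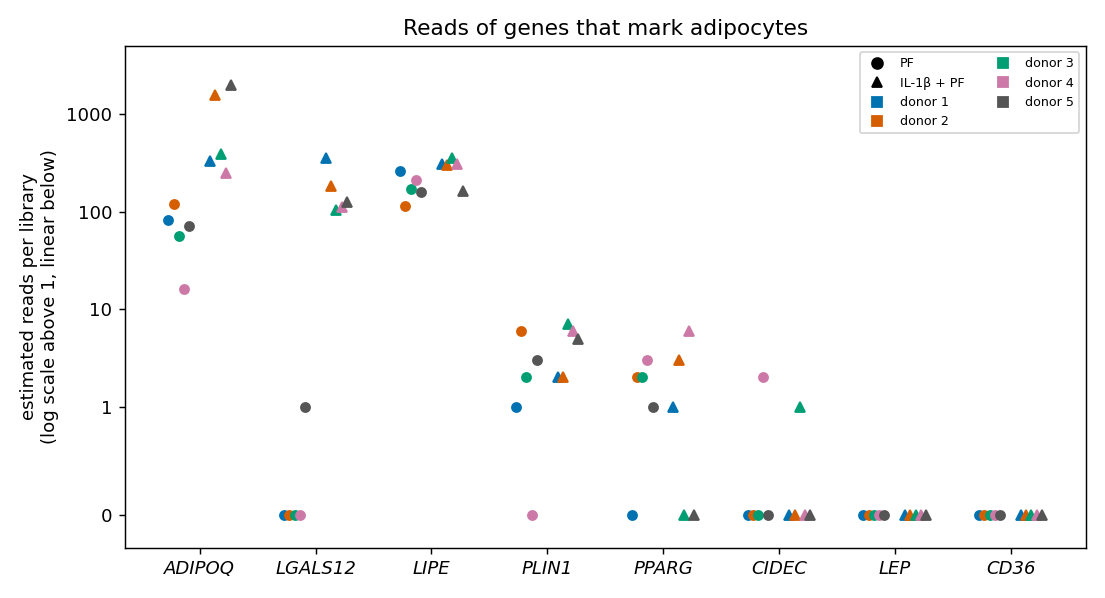
Estimated reads per library (y axis, log scale above 1 and linear below) of 8 genes that mark adipocytes or their formation, with PF alone (circles) and with IL-1β plus PF (triangles), coloured by donor. ADIPOQ and LGALS12 have no overlap between circles and triangles, while PLIN1, PPARG and CIDEC stay at 7 reads or fewer and LEP and CD36 at 0.

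Markers of other cells were read in the same libraries. Of 12 tested tenocyte genes 2, SCX and MKX, were lower with IL-1β plus PF (log2 fold changes -3.24 and -2.85, adjusted p = 6.11e-04 and 0.00554 from limma), and TNMD had 0 reads in all libraries. COL1A1 and COL1A2, the genes of type I collagen, joined them with the donor as a block (log2 fold changes -1.38 and -1.28, adjusted p = 0.0147 and 0.0169 from limma). DCN, LUM, PDGFRA and EGR1 had log2 fold changes of 0.33 to 1.01 and did not pass the test, DCN being higher in 5 of 5 donors. The summed normalised counts of the 13 tenocyte markers were lower in 5 of 5 donors, at 1016000 to 1595000 with PF alone and 358300 to 1390000 in the group with IL-1β. COL1A1 and COL1A2 weigh heavily in these sums, with the highest means of the 13 markers. These means were 18.74 for each with PF alone, and 17.36 and 17.46 in the group with IL-1β. Of 12 leukocyte markers 9 had at most 10 reads in every library, among them PTPRC with at most 3, and 1, CD68, was higher (log2 fold change 1.70). Their sums were 61.3 to 1770 with PF alone and 171 to 1944 in the group with IL-1β, higher in 5 of 5 donors. Most of these reads were of CD68 and CD14, and CD14 had 0 to 1463 reads in libraries of PF alone and 0 to 1367 where IL-1β was added (log2 fold change 2.66, limma, adjusted p = 0.340). Sums of 7 endothelial markers were 16.3 to 50.4 and 5.12 to 30.7, lower in 5 of 5 donors. Of these 7 markers 5 had at most 10 reads in every library, and of the 5 tested 0 passed. PECAM1 and TEK had log2 fold changes of 0.67 and 0.51, and VWF, KDR and CLDN5 of -0.73, -0.34 and -0.53. Of 6 mural cell markers 3 were lower, CSPG4, DES and RGS5 (log2 fold changes -1.84, -2.98 and -1.96), where 3.57% of all tested genes were called lower. Sums of the 6 markers were 13690 to 65010 with PF alone and 16040 to 32030 in the group with IL-1β, higher in 1 donor. Most of these counts were of MYH11 and CNN1, which did not pass the test (adjusted p = 0.678 and 0.332 from limma). The part of any such cells in the differences of ADIPOQ, LPL or CEBPB was not tested.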

How the data were processed

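RNA of 10 libraries was analysed, 1 per donor and group. The authors assigned reads to EquCab3.0 transcripts using Salmon (version 1.8, correcting for GC bias), summed them by gene with tximport, and used DESeq2 (version 1.36). The deposited values are variance-stabilised log2 expression normalised between libraries, recognised from the values, since the transformation is not named in the sources used here. Inverting it from its value at 0 reads gave normalised counts, and their low values gave reads per library (within 0.15 of a whole read for 67.5% to 84.4% of low values), which are approximate. Whether counting used strand is not given in the sources used here, so reads of a gene and of an antisense partner cannot be told apart.

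Genes with any read in 5 or more of the 10 libraries entered a limma fit (limma 3.58.1 in R 4.3.3) that used a mean-variance trend, no donor term and Benjamini-Hochberg adjustment over all tested genes. A blocked fit used the donor, since the labels give each tenocyte line in both groups. Libraries of one line deviated together from the group means (correlation across genes 0.367 to 0.506 over 5 pairs). The mean was -0.107 over 20 pairs of different lines. Since each group was centred on its own mean, that value follows largely from the same-line pairs and is no independent baseline. On simulated data of 17929 genes with 200 changed, 198 were found and 0 unchanged genes were called. The changed genes there were all well covered and changed by more than the minimum fold change. The simulation gave every gene the same relative spread and had no differences between donors. Its recovery therefore does not apply to genes with few reads or with donors far apart, such as PPARG and LPL. The members and lists were chosen with earlier results of these data known. Named are all members, from each list up to 2 higher and 2 lower genes by smallest adjusted p, and 13 genes of fixed interest. Added after their values were seen were the remaining differentially expressed genes of each list, UCP2, FASN, the adiponectin receptors and the marker genes of other cells. So were the regulators, droplet genes and synthesis genes that passed without the minimum fold change. The alternatives were other filters, scales, normalisations, variance models and thresholds, and leaving out donors or libraries. Leaving out a donor in the blocked fit was chosen after seeing the data. No sequence or position is given, since the gene table used here is of another assembly. The values of 1 differentially expressed gene of the lipid droplet and lipolysis list and of 1 regulator are not reported here.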

Additional observations from a re-analysis of the deposited data

Results flagged for a closer look

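Of 75 groups of 5 libraries for the 40 genes named, 15 held 1 library far from the other 4. Chance gives about 3.75 for independent groups of normally distributed values. The figure does not apply here, since the groups share the same 10 libraries and a group with reads in only 1 library always meets the rule. No explanation was tested for these 15. In 6 of them 1 to 5 reads stood against 0 in the others: LGALS12 with PF alone was at 3.88 in donor 5, CIDEC in donor 4 with PF alone at 4.12 and, where IL-1β was added, in donor 3 at 3.81, DLK1 in donor 2 with PF alone at 4.58 and, where IL-1β was added, in donor 4 at 4.36, and PPARGC1A at 3.92 in donor 3 with PF alone.

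Of the remaining cases, 3 were in the C/EBP genes. CEBPA was at 6.99 in donor 4 with PF alone (98 reads), against 5.62 to 5.89 in the other 4 (23 to 35 reads). CEBPB in donor 3 was above the others with PF alone, at 13.25 against 12.67 to 12.82, and below them with IL-1β plus PF, at 13.92 against 14.39 to 14.48.

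With IL-1β plus PF, donor 4 had GATA2 at 11.60 against 12.74 to 13.10, GPAM at 13.15 against 11.31 to 11.78, and HILPDA at 8.53 against 9.18 to 9.32, and donor 5 had TRIB3 at 9.63 against 8.76 to 8.92. With PF alone, GK was at 7.84 in donor 3 against 8.33 to 8.49, and SREBF1 at 9.50 in donor 2 against 9.90 to 9.98.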

How the results depend on the processing

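CEBPB, ADIPOQ, LGALS12, LIPG, GATA2, KLF15, TRIB3, FADS2, SCD, GPAM, FABP3, VLDLR and PDK4 kept their direction and call under every alternative run. The log2 fold changes were 1.42 to 1.70 for CEBPB and 2.72 to 3.48 for ADIPOQ. For the results that changed, the cause was not tested. The counts of differentially expressed genes (1202 in all, 2 of the 9 members) were, with no minimum fold change and the replicate block, 3996 in all, 4 members, and 15 adipogenic regulators, 7 droplet and lipolysis genes, 12 uptake and triglyceride genes, 7 synthesis genes, 15 oxidation genes and 5 adipokines and markers. With no minimum fold change and no block they were 2782 in all, 11 regulators, 4 droplet, 11 uptake and 9 oxidation genes. The replicate block alone gave 1486 in all, 3 members and 2 oxidation genes, and on log2(normalised count + 1) values 1809 in all and 3 oxidation genes. At an adjusted p below 0.01 there were 719 in all and 1 adipokine or marker. Leaving out donors or libraries gave 762 to 1422 genes in all (762, 790 and 777 without donors 1, 2 and 5), 3 to 6 regulators, 1 to 3 droplet, 3 to 6 uptake, 1 to 3 oxidation and 1 to 2 adipokine and marker genes. The replicate block changed the calls of LPL, UCP2, COL1A1 and COL1A2 and of no other named gene. PPARG, CEBPA, CEBPD and ABHD5 lay near 0 and changed sign: PPARG was at 0.029 under quantile normalisation, 0.023 centred on the median and -0.19 to 0.15 when donors or libraries were left out (with the replicate block 0.15 without donor 3 and 0.095 without donor 5), CEBPD was at 0.027 centred and -0.12 to 0.082 (with the block 0.075, 0.040 and 0.065 without donors 2, 4 and 5), CEBPA at -0.33 to 0.039 and ABHD5 at -0.056 to 0.13. Depth limits what can be said of PPARG, PLIN1 and CIDEC, at 7 reads or fewer.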
